A study of Homo sapiens with 7 samples.

Results

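Translesion synthesis and fork remodeling genes encode the factors that let a replication fork pass or retreat from damaged DNA. The group described here was chosen by name, with earlier results of these data known. It holds 10 of the 19978 genes in the deposited table. The polymerase genes are REV1, REV3L, POLK, POLI and POLN. The ubiquitin ligase genes are RAD18, HLTF and SHPRH, and the DNA translocase genes are SMARCAL1 and ZRANB3. All 10 members were found, and all 10 were among the 14863 genes that passed the expression filter.

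The RNA came from HEK-293, an immortalized human embryonic kidney cell line, kept for 48 h in 3 media. Control cells (2 samples) received DMSO, the vehicle, at pH 7.4. Acidosis cells (3 samples) received DMSO at pH 6.6, and SRPIN340 cells (2 samples) received 10 µM SRPIN340 with DMSO at pH 7.4. Per the methods, the share of DMSO was the same in all 3 media. SRPIN340 is an inhibitor of the kinases that phosphorylate SR splicing factors. The study set the inhibitor beside acidosis to compare low pH with the loss of SR protein phosphorylation. All groups are the same line with no genetic change, the acidosis is a mild chronic model, and the samples are described as biological repeats without a word on separate cultures, so p-values measure the spread between these samples.

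Totals lay between 13615816 and 24110460 estimated counts, with the shallowest library in acidosis. All 9 HEK-293 markers were above 1 CPM (counts scaled to a common library total) in every sample. Of 8 markers of blood, endothelium, liver and fibroblasts, 6 were below 1 CPM in every sample; COL1A1 was at 27.9 to 65.6 CPM and VWF at up to 2.02 CPM, and the T cell gene CD3E was at 0. CPM here is computed with TMM-scaled library totals, so every fold change is relative to the typical gene. Without TMM, that is with libraries divided by their totals alone, the median change over all genes in acidosis was -0.63 in place of -0.05 on the log2 scale, and 22.8% in place of 48.8% of the genes that passed were higher.

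When a replicative polymerase stalls at a damaged base, RAD18 attaches a single ubiquitin to the sliding clamp PCNA. Low-fidelity translesion polymerases then bind the clamp and copy past the damage. REV1 is a scaffold for the other translesion polymerases, POLK and POLI insert bases opposite damage, and REV3L, the catalytic subunit of polymerase zeta, extends from the inserted base. HLTF and SHPRH can lengthen the ubiquitin on PCNA into a chain, which directs the cell to template switching, and HLTF, SMARCAL1 and ZRANB3 use ATP to anneal strands and reverse stalled forks. POLN encodes polymerase nu, an A-family enzyme whose role is less well defined. The same enzymes set how well replicating cells tolerate crosslinking and alkylating drugs.

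The promoters of the 3 members with the clearest changes among the well expressed ones are shown here, because HLTF and SMARCAL1 were lower in acidosis and REV1 was higher. They are RefSeq sequences on GRCh38.p14, from 250 bases before to 50 after the start of the gene, 5′ to 3′ on the gene's strand. HLTF lies at chr3:149086484-149086783 (minus strand), SMARCAL1 at chr2:216412234-216412533 (plus strand) and REV1 at chr2:99489968-99490267 (minus strand). Capitals mark matches on either strand to the E2F motif TTTCCCGC, the NRF1 motif GCATGCGC, the CCAAT box CCAAT, the GC box GGGCGG, the ETS motif CCGGAAG and the cyclic AMP response core TGACG.
HLTF: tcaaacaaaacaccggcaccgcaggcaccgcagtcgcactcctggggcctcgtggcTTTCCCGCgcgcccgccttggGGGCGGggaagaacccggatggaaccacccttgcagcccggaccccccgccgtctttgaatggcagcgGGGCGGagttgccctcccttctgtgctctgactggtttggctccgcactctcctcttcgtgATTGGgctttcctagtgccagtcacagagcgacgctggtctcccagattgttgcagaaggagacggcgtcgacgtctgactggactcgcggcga
SMARCAL1: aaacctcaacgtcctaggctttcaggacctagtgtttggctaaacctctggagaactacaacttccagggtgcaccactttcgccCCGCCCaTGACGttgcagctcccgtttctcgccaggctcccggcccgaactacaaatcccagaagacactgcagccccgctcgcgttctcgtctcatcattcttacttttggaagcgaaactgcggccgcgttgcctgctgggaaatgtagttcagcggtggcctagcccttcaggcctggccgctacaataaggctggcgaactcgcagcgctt
REV1: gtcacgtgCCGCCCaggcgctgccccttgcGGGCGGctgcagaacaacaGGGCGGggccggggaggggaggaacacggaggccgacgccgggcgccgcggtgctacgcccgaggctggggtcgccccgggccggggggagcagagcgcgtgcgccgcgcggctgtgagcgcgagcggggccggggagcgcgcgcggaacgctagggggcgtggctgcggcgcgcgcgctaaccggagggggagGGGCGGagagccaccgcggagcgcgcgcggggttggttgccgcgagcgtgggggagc
The HLTF promoter held an E2F match, GC boxes and a CCAAT box read on the other strand. The SMARCAL1 promoter held a GC box and a TGACG, and the REV1 promoter held GC boxes only. REV1 had the richest promoter of the 10 in CpG, with 51 CpG and 80.7% GC, against 27 CpG and 64.7% GC for HLTF and medians of 14 CpG and 58.7% GC over 35116 promoters. A GC box was in 9 of 10 member promoters and in 45.0% of all promoters. The E2F motif was in 2 of 10 (HLTF and POLI) and 1.63% of all, the NRF1 motif in 1 (RAD18) and 3.05%, the CCAAT box in 2 (HLTF and ZRANB3) and 34.6%, the ETS motif in 2 (POLI and RAD18) and 10.3%, and TGACG in 4 (POLK, SHPRH, RAD18 and SMARCAL1) and 24.6%. A match is a run of letters and not a bound site.

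In acidosis most of the ligase and translocase genes were lower and REV1 was higher. Among the 10 members, 6 passed the test with lower levels (POLN, HLTF, SMARCAL1, SHPRH, POLI and RAD18), 2 passed with higher levels (REV1 and POLK), and 2 did not pass (REV3L and ZRANB3). A gene passed at an adjusted p under 0.05 (edgeR quasi-likelihood test, Benjamini-Hochberg over all genes tested), and was called when its log2 fold change was also over 1 in either direction. Of all genes tested, 34.2% passed lower and 32.5% passed higher, so change was common in this comparison. Calls were 4 lower members (POLN, HLTF, SMARCAL1 and SHPRH) against 19.1% of all genes, and 1 higher member (REV1) against 14.4%. The median log2 fold change was -0.52 over the members and -0.05 over all genes tested. In RNA from whole cultures, fewer cells that use a gene and less RNA per cell cannot be told apart.

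**Figure D1:**
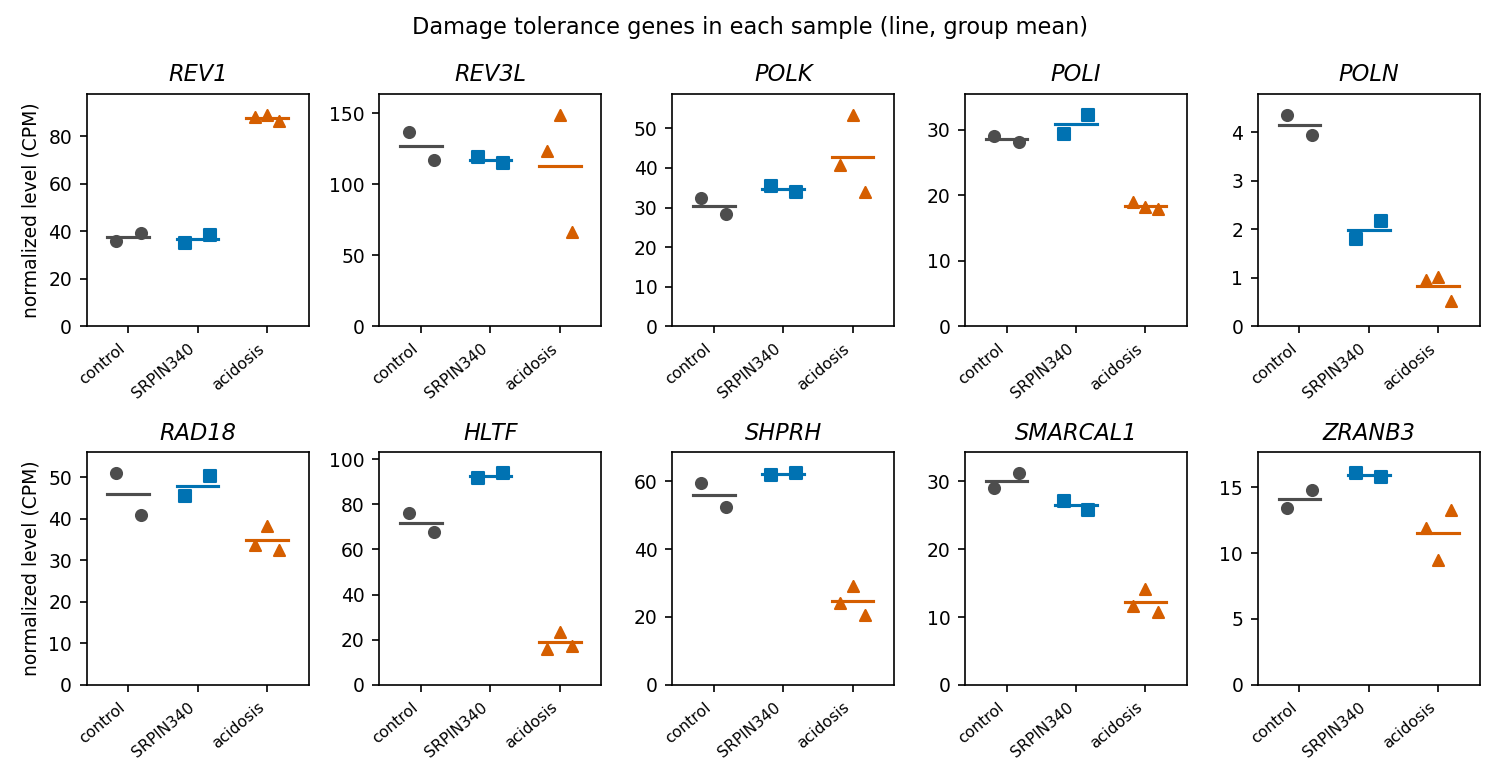
Normalized level of each member in CPM (vertical axes, each starting at 0) in the 2 control, 2 SRPIN340 and 3 acidosis samples; each point is a sample and each line a group mean. REV1 in acidosis stands at 86.4 to 89.2 CPM above all pH 7.4 samples, HLTF at 15.7 to 23.3 CPM below them, and REV3L overlaps in all groups.

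REV1 was the member that rose most. Its gene lies on chromosome 2 from 99400475 to 99490035 (GRCh38, minus strand). REV1 was at 36.0 and 39.3 CPM in control, 35.2 and 38.6 CPM with SRPIN340, and 88.1, 89.2 and 86.4 CPM in acidosis. The acidosis samples were all above the pH 7.4 samples and lay close together: their range was 0.045 on the log2 scale, and 2.3% of 14447 genes had a smaller one. The difference from control was 2.34-fold (log2 fold change 1.22, SE 0.09, adjusted p = 1.92e-06, edgeR). The log2 fold change of REV1 was 0.65 when scaled by total count only. Of the REV1 canonical transcript, 17.97% is shared with exons of EIF5B, a translation initiation factor gene on the opposite strand. EIF5B was lower in acidosis, at 194 to 215 CPM against 325 and 345 CPM in control (log2 fold change -0.73, adjusted p = 8.51e-06, edgeR), the opposite direction to REV1.

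REV3L, the partner that extends what REV1-bound polymerases begin, had no difference that passed. Its gene lies on chromosome 6 from 111299028 to 111483715 (minus strand). REV3L was at 137 and 117 CPM in control, 119 and 115 CPM with SRPIN340, and 123, 149 and 66.5 CPM in acidosis. The third acidosis sample was the lowest of all and the second was the highest, so the group spans both others. The log2 fold change was -0.17 (95% interval -0.66 to 0.32, adjusted p = 0.575, edgeR), and it was 0.10 without the third acidosis sample. It was -0.74 and passed when scaled by total count only (adjusted p = 0.0256, edgeR). The acidosis range of REV3L, 1.16 on the log2 scale, was wider than that of 89.9% of genes.

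The inserter polymerases moved apart. POLI, on chromosome 18 from 54269517 to 54321266 (plus strand), was at 29.0 and 28.1 CPM in control, 29.3 and 32.3 CPM with SRPIN340, and 18.9, 18.3 and 17.9 CPM in acidosis. Every acidosis sample was below every pH 7.4 sample, and the difference was 1.55-fold (log2 fold change -0.64, SE 0.11, adjusted p = 0.00056, edgeR). POLK, on chromosome 5 from 75511845 to 75609991 (plus strand), was at 32.4 and 28.3 CPM in control, 35.4 and 34.0 CPM with SRPIN340, and 40.7, 53.4 and 34.0 CPM in acidosis. The acidosis samples of POLK were above control but overlapped SRPIN340. POLK passed with a log2 fold change of 0.49 (SE 0.17, adjusted p = 0.0278, edgeR), but its log2 fold change was -0.08 when scaled by total count only. It did not pass without the first control sample (adjusted p = 0.0544), the second control sample (0.177) or the second acidosis sample (0.0575), all by edgeR.

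POLN had the lowest levels and the deepest fall, and its counts are uncertain. The gene lies on chromosome 4 from 2071918 to 2242121 (minus strand). POLN was at 4.36 and 3.93 CPM in control, 1.81 and 2.16 CPM with SRPIN340, and 0.95, 1.01 and 0.516 CPM in acidosis, the last from 16.4, 11.5 and 5.81 estimated counts. All acidosis samples were below all SRPIN340 samples, which were below both controls. The log2 fold change in acidosis was -2.31 (SE 0.36, adjusted p = 0.000287, edgeR), a 4.96-fold difference. However, 82.1% of the canonical POLN transcript is shared with exons of ENSG00000290263, a protein-coding gene on the same strand, and 15.0% with exons of HAUS3, which encodes a subunit of the spindle augmin complex. POLN's share of the counts given to POLN and ENSG00000290263 together was 63.6% and 47.9% in control, 27.5% and 37.1% with SRPIN340, and 26.5%, 24.3% and 12.8% in acidosis. ENSG00000290263 itself was at 2.49 and 4.28 CPM in control and 2.67 to 3.44 CPM in acidosis (adjusted p = 0.758, edgeR), and HAUS3 did not pass either (adjusted p = 0.352, log2 fold change 0.18). With the counts of POLN and ENSG00000290263 summed, a choice made after seeing the data, the log2 fold change in acidosis was -0.93 (SE 0.20, adjusted p = 0.00227, edgeR), against -2.31 for POLN alone. How the estimated counts were divided between these genes was not tested.

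RAD18, which starts the PCNA modification, fell by a small amount. It lies on chromosome 3 from 8775402 to 8963773 (minus strand). RAD18 was at 51.0 and 40.9 CPM in control, 45.6 and 50.2 CPM with SRPIN340, and 33.7, 38.4 and 32.4 CPM in acidosis. The highest acidosis sample was just below the lowest control sample. The log2 fold change was -0.40 (SE 0.13, adjusted p = 0.0175, edgeR). It did not pass without the first control sample (adjusted p = 0.182) or the third acidosis sample (0.0532), both by edgeR.

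HLTF, the ligase and fork-reversing translocase, fell furthest among the well expressed members. It lies on chromosome 3 from 149030127 to 149086554 (minus strand). HLTF was at 75.9 and 67.8 CPM in control, 91.5 and 93.7 CPM with SRPIN340, and 15.7, 23.3 and 17.3 CPM in acidosis. The groups did not overlap, with SRPIN340 highest and acidosis lowest. The difference between acidosis and control was 3.86-fold (log2 fold change -1.95, SE 0.15, adjusted p = 1.97e-06, edgeR). Exons of GYG1, the glycogenin gene on the opposite strand, cover 31.0% of the HLTF canonical transcript. GYG1 fell too, from 37.5 and 39.1 CPM in control to 22.1 to 24.7 CPM (log2 fold change -0.69, adjusted p = 0.000197, edgeR). The strand setting of the counting is not given in the sources used here, so reads of the 2 genes in the shared part may not be separable.

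SHPRH, the other chain-building ligase, fell with HLTF. It lies on chromosome 6 from 145864245 to 145964423 (minus strand). SHPRH was at 59.6 and 52.3 CPM in control, 61.9 and 62.4 CPM with SRPIN340, and 24.2, 29.1 and 20.5 CPM in acidosis. No acidosis sample reached the lowest control sample, and the difference was 2.28-fold (log2 fold change -1.19, SE 0.14, adjusted p = 3.6e-05, edgeR). A long noncoding RNA gene on the opposite strand, EPM2A-DT, covers 26.1% of the SHPRH transcript and was not analysed here.

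The translocases that reverse forks without a ubiquitin ligase domain did not move alike. SMARCAL1, which is recruited by the single-strand binding protein RPA, lies on chromosome 2 from 216412383 to 216483053 (plus strand). It was at 29.0 and 31.2 CPM in control, 27.1 and 25.8 CPM with SRPIN340, and 11.6, 14.1 and 10.8 CPM in acidosis. Every acidosis sample was below all others, and SMARCAL1 fell 2.48-fold (log2 fold change -1.31, SE 0.14, adjusted p = 1.98e-05, edgeR). ZRANB3, which binds ubiquitin-chain PCNA, lies on chromosome 2 from 135136916 to 135531218 (minus strand). It was at 13.4 and 14.8 CPM in control, 16.1 and 15.8 CPM with SRPIN340, and 11.9, 9.46 and 13.2 CPM in acidosis. The highest acidosis sample of ZRANB3 was just below the lowest control sample. Its log2 fold change was -0.29 (95% interval -0.61 to 0.03, adjusted p = 0.147, edgeR), and it was -0.86 when scaled by total count only, where it passed (adjusted p = 0.000801, edgeR).

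**Figure D2:**
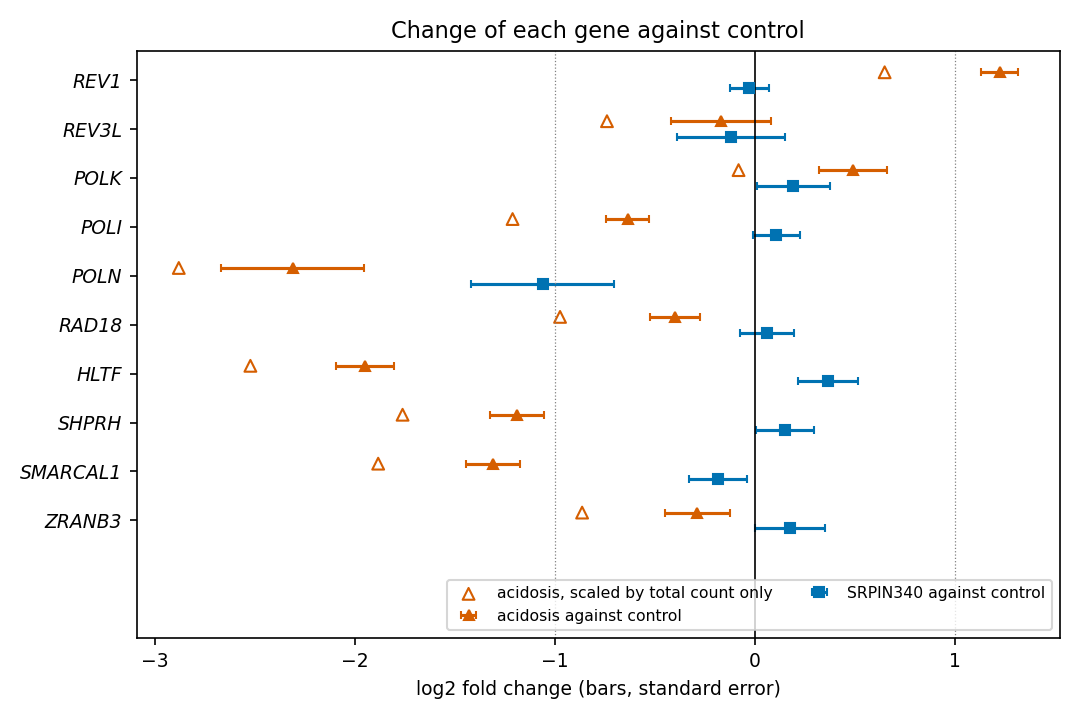
Log2 fold change of each member against control (horizontal axis) for acidosis (filled triangles) and SRPIN340 (squares), with bars for the standard error; open triangles give acidosis scaled by total count only, and dotted lines mark a log2 fold change of 1 in either direction. REV1 stays above 0 and HLTF, SMARCAL1, SHPRH, POLI, RAD18 and POLN stay below 0 under both scalings, while POLK changes sides.

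SRPIN340 changed no member past the threshold. Of the 10 members 0 passed (edgeR, lowest adjusted p 0.164), against 2.3% of all genes in either direction. Under an unadjusted p of 0.05 were 2 of the 10 members and 2621 of all 14863 genes (edgeR). With DESeq2 0 passed as well, against 324 higher and 587 lower of all 14863 genes, with the adjusted p of POLN not given. The 2 members under the unadjusted limit moved in opposite directions. POLN had a log2 fold change of -1.06 (95% interval -1.76 to -0.36, adjusted p = 0.164, edgeR), and -0.29 (adjusted p = 0.527) when summed with ENSG00000290263. HLTF had a log2 fold change of 0.37 (95% interval 0.07 to 0.66, adjusted p = 0.244, edgeR), with both SRPIN340 samples above both control samples. REV1 had a log2 fold change of -0.03 (95% interval -0.22 to 0.16), POLI 0.11 (-0.12 to 0.34), RAD18 0.06 (-0.20 to 0.32) and SHPRH 0.15 (-0.13 to 0.43). For SMARCAL1 it was -0.18 (-0.47 to 0.10), for ZRANB3 0.18 (-0.16 to 0.52), for POLK 0.19 (-0.16 to 0.55) and for REV3L -0.12 (-0.65 to 0.41). For 7 of the members that passed in acidosis (REV1, HLTF, SHPRH, SMARCAL1, POLI, RAD18 and POLN), the interval leaves out the change that the same gene had there. The interval of ZRANB3 also leaves out its acidosis value of -0.29, which did not pass.

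The test of acidosis against SRPIN340 compares the treatments directly, since both were otherwise set against the same control samples. Of the 10 members 7 passed lower in acidosis and 1, REV1, passed higher, while 35.0% of all genes passed lower and 32.8% passed higher. The difference was largest for HLTF, which had opposite signs against control, with a log2 fold change of -2.32 (SE 0.15, adjusted p = 6.43e-07, edgeR). SHPRH followed at -1.34 (adjusted p = 1.52e-05), then REV1 at 1.25 (1.67e-06), POLN at -1.25 (0.0129), SMARCAL1 at -1.12 (5.6e-05) and POLI at -0.74 (0.000191), all by edgeR. RAD18 (log2 fold change -0.46, adjusted p = 0.00844) and ZRANB3 (-0.46, adjusted p = 0.0287) passed by less. Without the second SRPIN340 sample, 4 members passed lower, and POLN, RAD18 and ZRANB3 did not (adjusted p = 0.0753, 0.0744 and 0.0997). ZRANB3 also did not pass without the first SRPIN340 sample (adjusted p = 0.115) or the second acidosis sample (0.0612), both by edgeR, or with DESeq2 (0.0511). POLK (0.30, 95% interval -0.03 to 0.63) and REV3L (-0.05, -0.54 to 0.44) did not pass. Without the third acidosis sample POLK did pass (log2 fold change 0.44, adjusted p = 0.028, edgeR), and the log2 fold change of REV3L was 0.22.

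Levels of different genes were compared per length, as CPM divided by the kilobases of the canonical transcript in GENCODE release 44. In control, HLTF was highest at 13.5 ± 1.08 CPM per kb (SD, n = 2), and REV3L at 11.9 ± 1.29 CPM per kb overlapped it. SMARCAL1 followed at 9.40 ± 0.50. REV1 at 7.95 ± 0.50, RAD18 at 7.84 ± 1.22 and SHPRH at 7.37 ± 0.68 CPM per kb overlapped one another. POLI was at 4.75 ± 0.11, ZRANB3 at 2.10 ± 0.15 and POLK at 2.08 ± 0.19 overlapped, and POLN was lowest at 1.27 ± 0.09 CPM per kb. The order in acidosis began with REV1 at 18.6 ± 0.29 CPM per kb (SD, n = 3), then REV3L at 10.5 ± 3.93 and RAD18 at 5.95 ± 0.53. SMARCAL1 (3.80 ± 0.55), HLTF (3.53 ± 0.76), SHPRH (3.24 ± 0.57), POLI (3.05 ± 0.09) and POLK (2.92 ± 0.68) formed a run in which each overlapped the next. HLTF thus stood at rank 1 in control and rank 5 in acidosis, and REV1 at rank 4 and rank 1. POLK's canonical transcript is long for its protein, with 14623 bases for 2610 coding bases, so its level per length depends on which transcript the cells make.

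**Figure D3:**
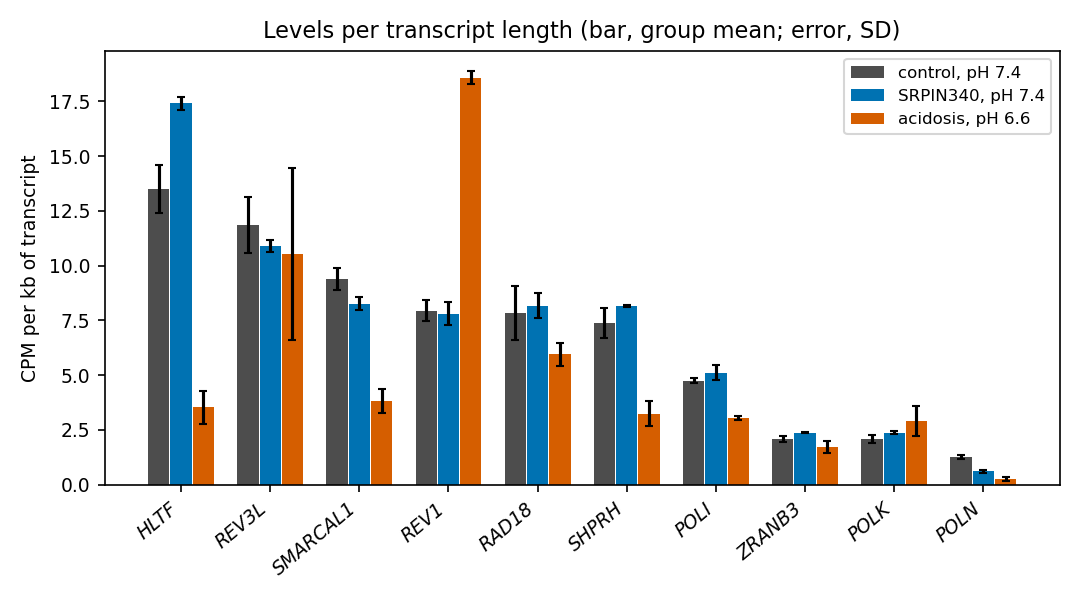
Group mean level in CPM per kb of canonical transcript (vertical axis from 0; error bars, SD) for each member in control (n = 2), SRPIN340 (n = 2) and acidosis (n = 3), ordered by the control level. HLTF is highest in control at 13.5 and REV1 is highest in acidosis at 18.6 CPM per kb.

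Most members have long transcripts of low GC content, which their choice did not use. Their median length was 5938 bases against 3388 over all genes tested, but SMARCAL1 (3201 bases) and POLN (3253 bases) were below that. They had a median of 22 exons against 9. The median GC content was 41.1% against 48.6%, with SMARCAL1 (51.8%) and POLN (49.3%) above the median of all genes, and the genes span a median of 99.2 kb against 34.4 kb. Among genes in the fifth with the most exons (18 or more), which holds 7 members, the median log2 fold change in acidosis was -0.19, with quartiles of -0.86 and 0.46. REV1, at 1.22, lay above that range, HLTF, SMARCAL1, SHPRH and POLN lay below it, and REV3L and ZRANB3 lay inside. Among the genes of longest span (104.9 kb or more) the median was -0.29, with quartiles of -0.99 and 0.41, and of the 4 members there RAD18, ZRANB3 and REV3L lay inside and POLN below.

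The other translesion polymerase genes and their cofactors also passed more often lower than higher. Of 10 such genes, 6 passed lower and 2 passed higher in acidosis (34.2% and 32.5% of all genes), with a median log2 fold change of -0.42. PRIMPOL, which restarts synthesis beyond a lesion by priming anew, fell from 14.1 and 13.9 CPM in control to 3.33, 4.96 and 3.35 CPM (log2 fold change -1.86, SE 0.19, adjusted p = 1.76e-05, edgeR). VCP, a segregase that extracts ubiquitinated proteins from chromatin, had a log2 fold change of -1.47 (adjusted p = 1.39e-06). POLD2, a subunit that polymerase delta shares with polymerase zeta, rose from 110 and 108 CPM to 288 to 297 CPM (log2 fold change 1.42, adjusted p = 1.24e-07). POLH, the polymerase that copies past ultraviolet damage, had a log2 fold change of -0.35 that did not pass (adjusted p = 0.121, edgeR), with 34.9 and 33.3 CPM in control and 21.7, 24.3 and 34.8 CPM in acidosis. Without the third acidosis sample POLH passed at a log2 fold change of -0.57 (adjusted p = 0.00543, edgeR). MAD2L2, the REV3L partner in polymerase zeta, had a log2 fold change of 0.18 that did not pass (adjusted p = 0.188, edgeR), and was at -0.39 when scaled by total count only, where it passed (adjusted p = 0.0114, edgeR).

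The list of genes for the ubiquitin switch on PCNA, which includes PCNA itself, had more higher than lower members. Of 12, 7 passed higher and 3 lower (32.5% and 34.2% of all genes), with a median log2 fold change of 0.26. But with scaling by total count only, 1 passed higher and 7 lower, against 2413 higher and 8179 lower of all 14863 genes. UBE2A, the conjugating enzyme that works with RAD18, rose from 95.9 and 94.7 CPM to 156 to 158 CPM (log2 fold change 0.72, adjusted p = 1.17e-05, edgeR). USP7, a deubiquitinase that stabilizes several replication proteins, had a log2 fold change of 1.02 (adjusted p = 2.97e-06). PCNA, among the genes of the list that passed lower, fell from 305 and 281 CPM to 189, 177 and 190.5 CPM (log2 fold change -0.66, SE 0.07, adjusted p = 1.43e-05, edgeR).

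Of 18 fork remodeling and protection genes, 12 passed lower and 3 higher (34.2% and 32.5% of all genes), with a median log2 fold change of -0.69. BRCA1, which protects reversed forks from resection, had a log2 fold change of -1.69 (adjusted p = 1.66e-06, edgeR). RPA1, the large subunit of the protein that brings SMARCAL1 to forks, fell from 189 and 205 CPM to 61.8, 52.5 and 78.3 CPM (log2 fold change -1.62, adjusted p = 3.93e-06, edgeR).

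Of 13 genes of the ATR checkpoint, which signals stalled forks, 4 passed lower and 5 higher, close to the 34.2% and 32.5% of all genes, with a median near 0. WEE1, the kinase that holds cells before mitosis, rose from 64.6 and 65.0 CPM to 244, 259 and 234 CPM (log2 fold change 1.92, adjusted p = 8.99e-08, edgeR). CHEK1, the effector kinase of ATR, had a log2 fold change of 1.37 (adjusted p = 1.8e-06), and RAD17, which loads the checkpoint clamp, one of -1.24 (adjusted p = 2.57e-05). With scaling by total count only, 7 of this list were lower and 3 higher, against 8179 lower and 2413 higher of all 14863 genes.

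Replicative polymerase and clamp loader genes gave 8 of 17 lower and 5 higher (34.2% and 32.5% of all genes), the latter near the share of all genes, with a median log2 fold change of -0.19. The largest falls were in the primase genes PRIM2 (log2 fold change -1.85, adjusted p = 2.84e-07, edgeR) and PRIM1 (-1.84, adjusted p = 2.03e-06). Proliferation markers moved with the same comparison: 9 of 14 passed lower and 3 higher (34.2% and 32.5% of all genes), with a median of -0.47. Among them MKI67 fell from 1122 and 938.5 CPM to 445, 514 and 418 CPM (log2 fold change -1.17, adjusted p = 3.86e-06, edgeR). CCNE2, a cyclin of S phase entry, had a log2 fold change of -1.25 (adjusted p = 6.54e-05, edgeR). CDT1, a replication licensing factor, had one of 1.19 (adjusted p = 1.38e-05, edgeR). The part of the proliferation markers in the change of the members was not tested. With SRPIN340, 2 of the 14 proliferation markers passed, both lower (MCM5, log2 fold change -0.50, adjusted p = 0.0308, and MCM2, -0.38, adjusted p = 0.0467, edgeR; both are subunits of the replicative helicase), and 0 genes of the other lists passed by edgeR. In acidosis MCM5 and MCM2 passed higher, with log2 fold changes of 0.81 (adjusted p = 1.87e-05) and 0.64 (adjusted p = 4.1e-05, edgeR). For SRPIN340, DESeq2 passed 9 of the 14 markers, all lower, MKI67 among them (adjusted p = 0.00612). Over all 14863 genes DESeq2 passed 587 lower and 324 higher with SRPIN340. In the other lists DESeq2 passed VCP lower (adjusted p = 0.0483) and WRN, a helicase gene, higher (adjusted p = 0.0462).

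**Figure D4:**
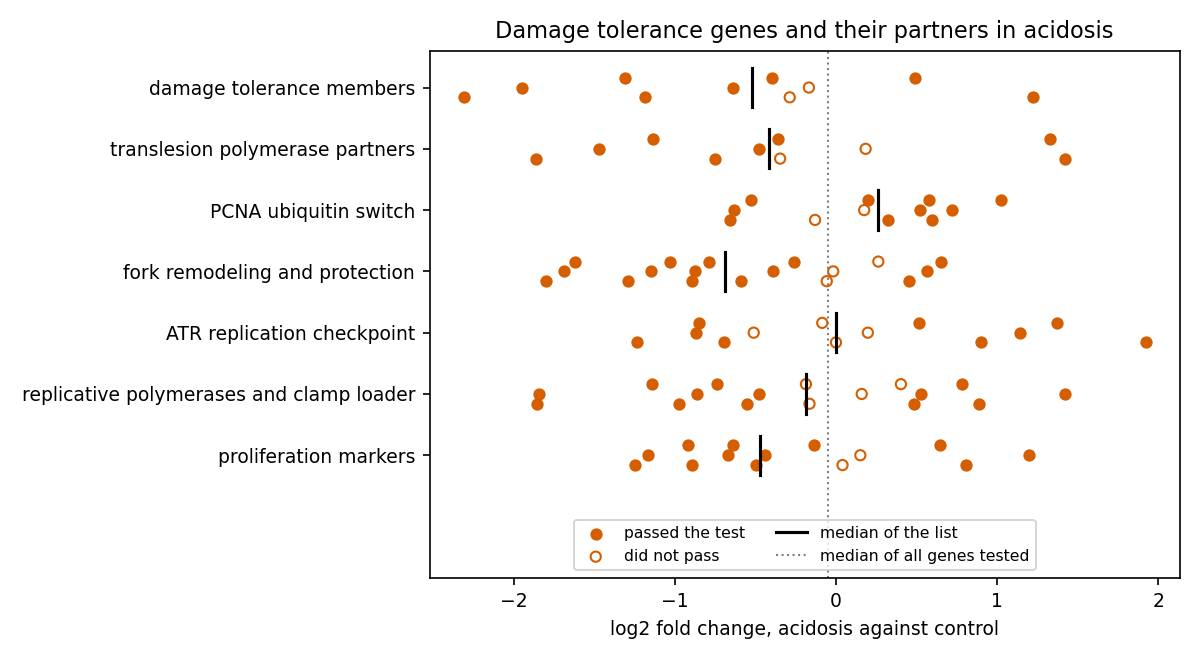
Log2 fold change in acidosis against control (horizontal axis) of every gene of the 10 members and the 6 lists of partners and markers; filled points passed the test, open points did not, height within a list has no meaning, black lines are list medians, and the dotted line is the median of all 14863 genes. Most fork protection genes lie to the left, with a list median of -0.69, and most PCNA ubiquitin genes to the right, at 0.26.

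Exons of other protein-coding genes also touch POLK and ZRANB3. CERT1, on the opposite strand, covers 0.164% of the POLK transcript and had a log2 fold change of -0.61 in acidosis (adjusted p = 0.000615, edgeR). RAB3GAP1 overlaps 359 exon bases of ZRANB3 outside its canonical transcript and had one of 0.53 (adjusted p = 9.45e-05). The noncoding genes HLTF-AS1, SMARCAL1-AS1, TRAF3IP2-AS1 and RPL37A-DT, and unnamed ones at POLK, POLI, POLN, REV3L and SMARCAL1, also share exon bases with members and were not analysed here. The study's reference gene for RT-PCR, TBP, was at 27.95 and 25.7 CPM in control and 22.0, 21.8 and 18.8 CPM in acidosis (log2 fold change -0.36, adjusted p = 0.0225, edgeR). Relative to TBP, the log2 fold change in acidosis was 1.58 for REV1, -1.59 for HLTF, -0.83 for SHPRH, -0.95 for SMARCAL1 and -0.28 for POLI, and for RAD18 it was -0.04.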

How the data were processed

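Poly(A)-selected RNA from 7 HEK-293 samples was sequenced. Per the labels and methods, the authors trimmed reads (the submitters' processing notes name Trimmomatic 0.39 and Trim Galore 0.6.6), quantified a Gencode GRCh38 transcriptome with Salmon 1.5.1 and summed transcripts with tximport. Per gene, the table deposited by the authors gives estimated counts that were not scaled between samples. The tximport option and strand setting are not given in the sources used here. The methods also mention replicates within a repeat, which the single column of each sample does not separate.

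Here the estimated counts were rounded, and the quasi-likelihood test of edgeR 4.0.16 (R 4.3.3) was fitted once over 7 samples with TMM scaling and filterByExpr, with Benjamini-Hochberg adjustment over 14863 genes. The standard error was taken from the test statistic, and 95% intervals from it by a normal approximation. With so few samples these intervals are narrower than those that the test itself implies. DESeq2 1.42.0, other scalings and filters, the 2 groups compared alone, a replicate block and leaving out each sample were alternatives. Depth limits POLN most, since it had the fewest counts of the members. How far counting noise and the spread between samples set the precision of the others was not tested. In simulated counts for acidosis against control (14863 genes, 200 changed), 96% were recovered with 9 false calls. In the real comparison 34.2% of genes passed lower and 32.5% higher, and recovery with so many changed genes was not tested. The 96% is for the 200 genes together, and recovery by size of fold change is not given here. Annotation was GENCODE release 44, matched for 19977 of 19978 genes, and promoters came from RefSeq for all 10 members. Tables and figures used Python 3.11.15 and matplotlib 3.10.9.

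The members and lists were chosen with earlier results of these data known. All 10 members were named in each comparison, and of each other list the 3 genes that passed in acidosis with the largest change and a mean of at least 3 CPM, with PCNA, POLH, MAD2L2, TBP and protein-coding genes whose exons overlap a member's. A gene that this rule names is not reported here. MCM2, MCM5, WRN and UBE2B were named after their values were seen. Splicing was not analysed here.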

Additional observations from a re-analysis of the deposited data

How the results depend on the processing

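The direction of the members that passed in acidosis was the same in every alternative run except for POLK, and HLTF, SMARCAL1, SHPRH, POLN, POLI and REV1 passed in each that was tested, except that POLN had no value with a minimum mean of 6 CPM. Scaling by total count only had the widest effect. In acidosis against control it left 1 member that passed higher, and turned POLK to -0.081 and MAD2L2 to -0.39 on the log2 scale. Over all 14863 genes, 2413 passed higher and 8179 lower with this scaling. It gave 3 higher and 7 lower genes of the ATR checkpoint and 1 higher and 7 lower of the PCNA ubiquitin genes. It also gave 0 higher of the fork genes and 2 higher of the replicative polymerases. It turned POLK to -0.31 against SRPIN340, and REV1 to 0.012 with SRPIN340. With only the 2 groups compared in the fit, 1 member, REV1, passed higher in acidosis, and POLK did not pass (adjusted p = 0.056, edgeR). Relative to TBP, REV3L was at 0.19 and ZRANB3 at 0.07. With the longest transcript as length, the control levels were 1.04 CPM per kb for POLN, 4.801 for SHPRH and 8.13 for SMARCAL1.

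Leaving out 1 sample at a time, 5 to 6 members passed lower and 1 to 2 higher in acidosis against control, 0 passed with SRPIN340, and 4 to 7 passed lower and 1 to 2 higher in acidosis against SRPIN340. The log2 fold change of REV3L ranged from -0.41 to 0.10 in acidosis and from -0.29 to 0.22 against SRPIN340. With SRPIN340, REV1 ranged from -0.096 to 0.040 and RAD18 from -0.093 to 0.23. The cause of these changes was not tested, and an arm left with 1 sample was assumed to vary like the others.

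Same-numbered samples did not deviate together (correlations from -0.115 to 0.063), so replicate numbers give no pairing. Replicate number 3 occurs only in acidosis, so the replicate block fits that sample by itself and takes it out of the comparisons. The block is therefore close to leaving out acidosis sample 3 and is not a separate check. Against control, SHPRH was at -1.08 with the block and -1.07 without that sample, and REV3L was at 0.10 in either run. With the replicate block, 2 members passed higher in acidosis against SRPIN340 (POLK, adjusted p = 0.0447), REV3L turned to 0.10 against control and 0.22 against SRPIN340, and RAD18 in acidosis (0.0782), POLN against SRPIN340 (0.0589) and TBP (0.0937) did not pass, while POLH did (0.00778). Among the members' calls, DESeq2 changed that of ZRANB3 against SRPIN340 (0.0511), and among proliferation markers with SRPIN340 it passed 9 of 14 against 2 with edgeR. Over all 14863 genes with SRPIN340, DESeq2 passed 324 higher and 587 lower, and edgeR 114 higher and 228 lower.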

Other observations

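Ratios of members within a sample do not depend on how libraries are scaled. Per length, REV1 counts were 0.533 to 0.652 of HLTF counts in control, 0.432 to 0.464 with SRPIN340 and 4.30 to 6.32 in acidosis. This pair sets the member that rose most over the well expressed member that fell furthest, so its shift in acidosis restates their own changes. The scaffold REV1 stood at 0.596 to 0.759 of REV3L in control, 0.670 to 0.762 with SRPIN340 and 1.35 to 2.94 in acidosis. Among fork translocases, ZRANB3 was 0.221 to 0.226 of SMARCAL1 in control, 0.283 to 0.292 with SRPIN340 and 0.320 to 0.590 in acidosis. Between the inserter polymerases, POLK was 0.415 to 0.459 of POLI in control, 0.434 to 0.496 with SRPIN340 and 0.782 to 1.20 in acidosis. These ratios rest on 2, 2 and 3 samples and were not tested.

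The acidosis samples differed in how tightly members sat. The range between the 3 acidosis samples was 0.045 on the log2 scale for REV1 and 0.083 for POLI, 0.573 for HLTF, 0.508 for SHPRH and 0.396 for SMARCAL1, and 1.16 for REV3L. The third acidosis sample was the lowest of its group for POLN, POLK, POLI, REV1, REV3L, SHPRH, RAD18 and SMARCAL1, and the highest for ZRANB3.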
